A study of Saccharomyces cerevisiae BY4741 with 16 samples.

Results

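The 143 genes described here are those of budding yeast (*Saccharomyces cerevisiae*) at which trimethylation of histone H3 at lysine 36 (H3K36me3) was above its starting level at each of 20, 40 and 60 min after rapamycin. They were chosen from 5218 genes with values for both marks in the authors' deposited table. Of these, 4861 had a mean H3K36me3 signal over the 4 times of at least 25% of the median of such means, and 143 of the 4861 (2.94%) lay above 0 min at all 3 later times. The choice used the H3K36me3 values themselves, so the direction of H3K36me3 at these genes is a description and not a finding. H3K4me3, gene position and the neighbouring genes played no part in it.

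The series followed H3K36me3 and H3K4me3 by chromatin immunoprecipitation and sequencing before and 20, 40 and 60 min after adding rapamycin to 1 ug/mL, in order to see what becomes of the marks once RNA polymerase II has been taken out of the nucleus. In this anchor-away system the anchor is a ribosomal protein fused to FKBP12 (RPL13-2xFKBP12-NATMX6), and rapamycin couples it to the protein to be removed, which it then draws into the cytoplasm. Every group, 0 min included, was the same MATa strain in the BY4741 background, grown to log phase in rich glucose medium, with the auxotrophic alleles his3D1, leu2D0 and ura3D0, the tor1D1 allele and the deletion fpr1D. The labels name no tagged polymerase subunit, no strain without the tag and no culture without rapamycin, so that the polymerase was depleted rests on the design text alone, and time after rapamycin and time in culture cannot be told apart.

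H3K36me3 is laid down in yeast by Set2, a methyltransferase that rides on the phosphorylated tail of elongating RNA polymerase II, so the mark covers the bodies of transcribed genes. It is read by the Rpd3S deacetylase complex, which keeps start sites inside genes quiet. H3K4me3 is placed near gene starts by the Set1 complex (COMPASS), which also works with the polymerase. Both marks can outlast transcription, and demethylases, histone exchange and replication remove or dilute them.

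Each mark and time had 1 library, so there is no replicate error, no test and no p-value, and "above" and "below" compare single libraries. The 0 min H3K36me3 library enters all 3 comparisons of the rule. Summed over 5218 genes the deposited H3K36me3 signal was 6655, 4822, 5034 and 4172 at the 4 times, and that of H3K4me3 was 23958, 23092, 24034 and 21240. The values are not counts, so the depth behind them is unknown and no interval from counting error can be given. Whether they were divided by gene length is not stated. The rank correlation of a gene's length with its mean signal was 0.23 for H3K36me3 and 0.21 for H3K4me3 across 5115 genes, and levels of different genes are set side by side here only on the deposited scale.

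*SER3*, which encodes the phosphoglycerate dehydrogenase that opens serine synthesis, had the largest difference among the 39 member genes whose mean H3K36me3 level was at or above that of the median gene. Its H3K36me3 signal was 0.739, 0.985, 1.98 and 2.07 at 0, 20, 40 and 60 min, a log2 change of 1.47 at 60 min. Each library was above the one before, and most of the difference lay between 20 and 40 min. Log2 changes are given after adding a pseudocount of 1% of the mark's median 0 min level to both values, which understates changes of low genes. *SER3* lies on chromosome V (chrV:322686-324095, + strand, R64, the assembly of sacCer3), and its annotated start overlaps *SRG1*, the noncoding RNA gene whose transcription is known to repress it, by 77 bases. Its rank within each library went from percentile 31.2 to 60.8, 93.2 and 97.4 of all genes, and a rank does not depend on how a library was scaled.

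H3K4me3 at *SER3*, measured in separate libraries, was 1.45, 2.99, 5.95 and 6.18, a log2 change of 2.06. The genes on either side of it had lower H3K36me3 at 60 min than at 0 min. *AIM9*, upstream on the same strand, was at 1.00 and 0.581, and *UTP7*, downstream and convergent, at 1.32 and 1.04.

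Next among members of this level came YLR286W-A, then *HRP1*, *PMA1*, YFL057C, *ICS2*, *GTS1* and *RPS22B*. *HRP1*, which encodes an RNA-binding subunit of the mRNA cleavage and polyadenylation machinery, had H3K36me3 of 1.55, 1.90, 2.52 and 2.15 (chrXV:87844-89448). *PMA1*, the gene of the plasma membrane proton pump, had 2.04, 2.35, 3.53 and 2.74 (chrVII:479910-482666, - strand). In both the highest library was that of 40 min, and the 60 min value was lower than it but above 20 min.

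Their neighbours were below their own 0 min levels on the deposited scale. Of the neighbours of *HRP1*, *TRM11* was at -0.78 and *SMF1* at -0.73 in H3K36me3 at 60 min. The neighbours of *PMA1* were YGL007C-A at -1.41 and *LEU1* at -0.28.

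*RPS22B*, a gene of the small ribosomal subunit, had H3K36me3 of 1.96, 2.12, 2.95 and 2.49, and it holds the small nucleolar RNA gene *SNR44* within 211 of its bases. YLR286W-A had 0.996, 1.10, 1.50 and 1.61, and YFL057C had 1.02, 1.23, 1.50 and 1.36. Neither of those names was matched in the R64 gene table, so no position or role is given for them. *ICS2* had 1.20 at 0 min and 1.54 at 60 min, and *GTS1* had 0.956 and 1.22. The 40 min library was the highest at *RPS22B*, YFL057C and *ICS2*, the 60 min library at YLR286W-A and the 20 min library at *GTS1*.

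**Figure D1:**
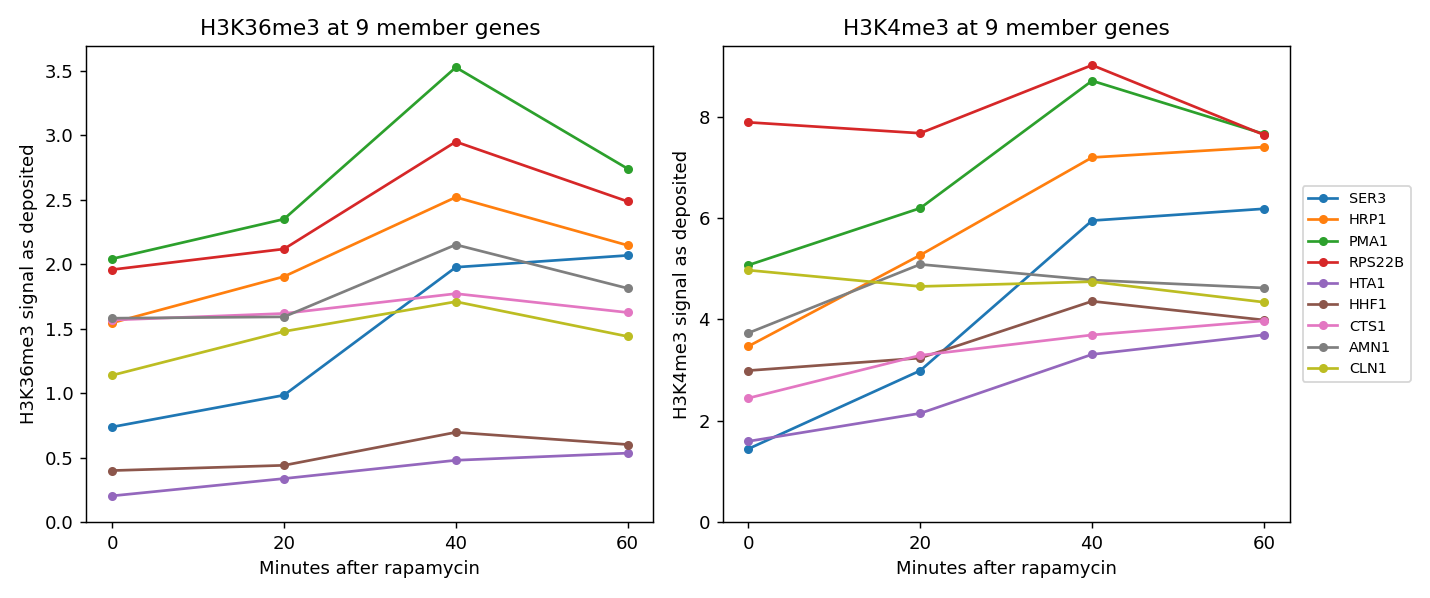
Deposited signal of H3K36me3 (left) and H3K4me3 (right) against minutes after rapamycin at 9 member genes, 1 library per point and no error bars because there are no replicates. *SER3* goes from 0.739 to 2.07 in H3K36me3 and from 1.45 to 6.18 in H3K4me3, while *RPS22B* and *CLN1* have higher H3K36me3 at 60 min and slightly lower H3K4me3.

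Among the other 104 members, whose mean level was below that of the median gene, larger log2 changes started from very low signal. YMR013W-A, not matched in the gene table, had 0.129, 0.267, 0.888 and 0.761, a log2 change of 2.47 and the largest of all 143. YLR342W-A had 0.163, 0.298, 0.555 and 0.558. *HTA1*, which encodes histone H2A, had 0.204, 0.339, 0.480 and 0.536. *MMS2*, whose product works with Ubc13 in error-free repair behind replication forks, had 0.137, 0.239, 0.361 and 0.352. In these 4 genes the 0 min signal was under 0.219, the threshold applied to the mean over all times.

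*SPO16*, a gene of meiotic chromosome synapsis, had the lowest 0 min value of all members, 0.112, then 0.310, 0.334 and 0.250. YKR005C was at 0.274 and 0.507 at 0 and 60 min, YDL218W at 0.456 and 0.808, and *MNN14*, known for mannosylphosphate transfer, at 0.166 and 0.285. Of the 143 members, 15 had a 0 min level under the threshold and passed it through their later values, as did 4 of the 4718 other genes past the filter.

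The members with the strongest signal before rapamycin differed in the size of their change. The 6 highest at 0 min were *PSA1*, *PMA1*, *RPS22B*, *RPL11B*, *SMD1* and *AMN1*. *PSA1*, the gene of GDP-mannose pyrophosphorylase, had 2.10, 2.16, 2.34 and 2.21. *RPL11B* of the large ribosomal subunit had 1.79, 1.92, 1.99 and 1.91, and *SMD1*, of the Sm ring of spliceosomal particles, had 1.74, 2.03, 1.91 and 1.77. At *PSA1*, *RPL11B* and *SMD1* the 60 min value was above 0 min by less than 0.1 on the log2 scale, while *PMA1* was at 0.42 and *RPS22B* at 0.34.

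Over all members the log2 change of H3K36me3 at 60 min ran from 0.0092 to 2.47 with a median of 0.22, and it was at least 0.5 in 20 and below 0.1 in 42 of them. The median over the 4861 genes was -0.65, and 11.6%, 15.7% and 4.79% of those genes were above 0 min at 20, 40 and 60 min. The 20 min and 40 min medians of the members were 0.30 and 0.43, beside -0.41 and -0.36 over all genes. The smallest excess over 0 min at any later time had a median of 10.2%, and in 74 members each later time was at least 10% above 0 min.

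The edges of the rule were close on both sides. Just inside, the smallest excess was 0.472% at *PRX1*, which encodes a mitochondrial peroxiredoxin, then 0.483% at *SYM1* and 0.648% at *RPS10A*. Just outside, *DAL7* was at -0.0709%, *CUL3* at -0.171% and *KIN3* at -0.249%. On the level filter, YGR153W with a mean of 0.222, *MNN14* with 0.233 and *SAY1* with 0.237 were the last to pass. *NDE2* with 0.213, *UBC11* with 0.212 and *JID1* with 0.210 lay above 0 min at all times and did not pass. In all, 200 genes of any level were above 0 min at all 3 times, and 57 of them were removed by the filter.

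The number of members depends on how the libraries are scaled against each other. With each H3K36me3 library set to the same total, 1792 genes lay above 0 min at all 3 times, and with the lowest 5% of genes by mean level held at their 0 min median it was 1004. At 60 min these scalings add about 0.67 and 0.61 to every log2 change of H3K36me3, and 0.17 and 0.30 to those of H3K4me3, so a change below 0 by less than that turns above it. Directions given here are those of the deposited values. All 143 members were among both sets, since either scaling raises the later libraries. The members are therefore the genes that stayed above 0 min under the least favourable of the 3 scalings, and a gene outside the set may be above its start under another.

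**Figure D2:**
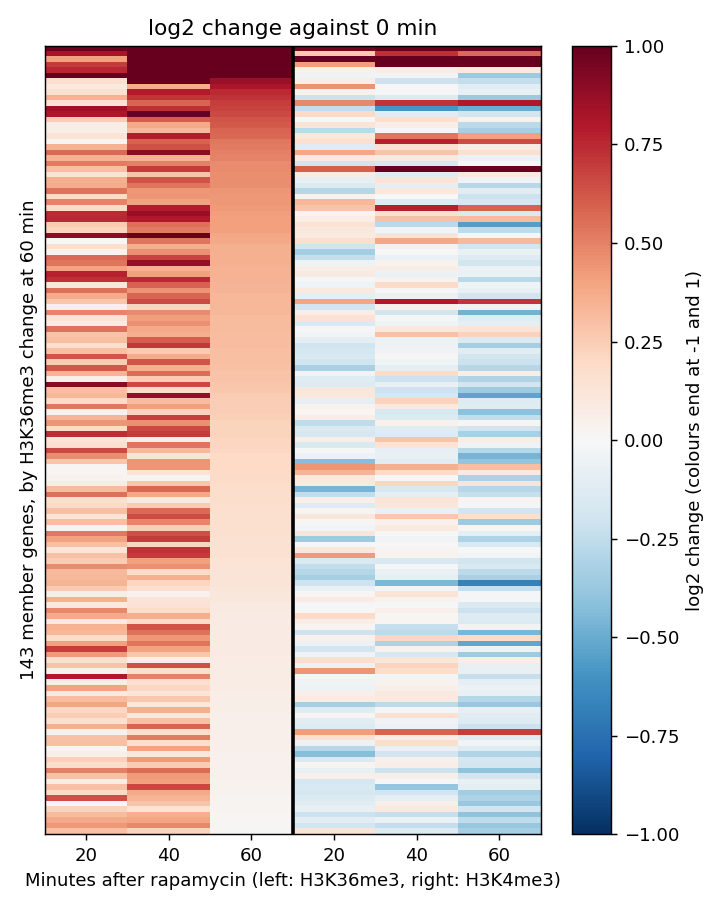
Log2 change against 0 min at 20, 40 and 60 min for H3K36me3 (left 3 columns, all above 0 by the rule) and H3K4me3 (right 3 columns) at the 143 members, 1 line per gene, ordered by H3K36me3 at 60 min. Colours end at -1 and 1. The 115 members past the H3K4me3 level filter described below were put in 4 groups of 28 or 29 by H3K36me3 change. From the group with the smallest changes to that with the largest, 1, 8, 6 and 12 genes had H3K4me3 above 0 at 60 min. Among these genes, *SER3* and *HTA1* lie near the top and *AMN1* further down, and *CTS1* is the 1 gene in the group with the smallest changes.

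The later libraries did not rank alike across members. All the H3K36me3 columns entered the rule, which favours genes with a high 60 min value, so the shares of all genes stand here as a description only. Of the 3 later times, 40 min was the highest at 85 of 143 members (59.4%, beside 53.9% of all genes past the filter). The highest was 20 min at 40 members (28.0%, beside 40.1%) and 60 min at 18 (12.6%, beside 6.05%). From 40 to 60 min the signal was lower at 117 members, or 81.8%, where it was lower at 89.1% of all genes. The change from 20 to 60 min had a median of -0.078 in the members and -0.23 over all genes, and 57 members were above their 20 min level at 60 min (20.6% of all genes were).

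In 14 members every library was above the one before. Any gene past the filter with that order is a member by the rule, so these are also all such genes among the 4861. They were *SER3*, *HTA1*, *GAL4*, *BNA7*, *MCP1*, *RIM4*, *PPT2*, *PHR1*, *RRT13*, *ATX2*, YLR342W-A, YDL218W, YLR286W-A and YJR149W, listed after their values were seen. *GAL4*, which encodes the activator of the galactose genes, had 0.347, 0.444, 0.575 and 0.580, and it lies wholly within the annotated noncoding gene YNCP0002W. *BNA7*, whose product acts in NAD synthesis from tryptophan, had 0.542, 0.646, 0.830 and 0.844.

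The members stood low in H3K36me3 before rapamycin. Their median percentile among all genes was 13.2 at 0 min and 28.7, 30.9 and 35.9 at 20, 40 and 60 min. At 0 min 96 of 143 members (67.1%) were in the lowest 25% of genes, where 19.5% of all genes past the filter were, and 5 were in the highest 25%. The rule uses the 0 min level, so a low start is partly built into it. *HRP1* went from percentile 69.5 to 97.7 at 60 min, *PMA1* from 83.5 to 99.5, *CTS1* from 70.3 to 92.5, *HTA1* from 4.31 to 36.6 and *SPO16* from 1.59 to 12.7.

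**Figure D3:**
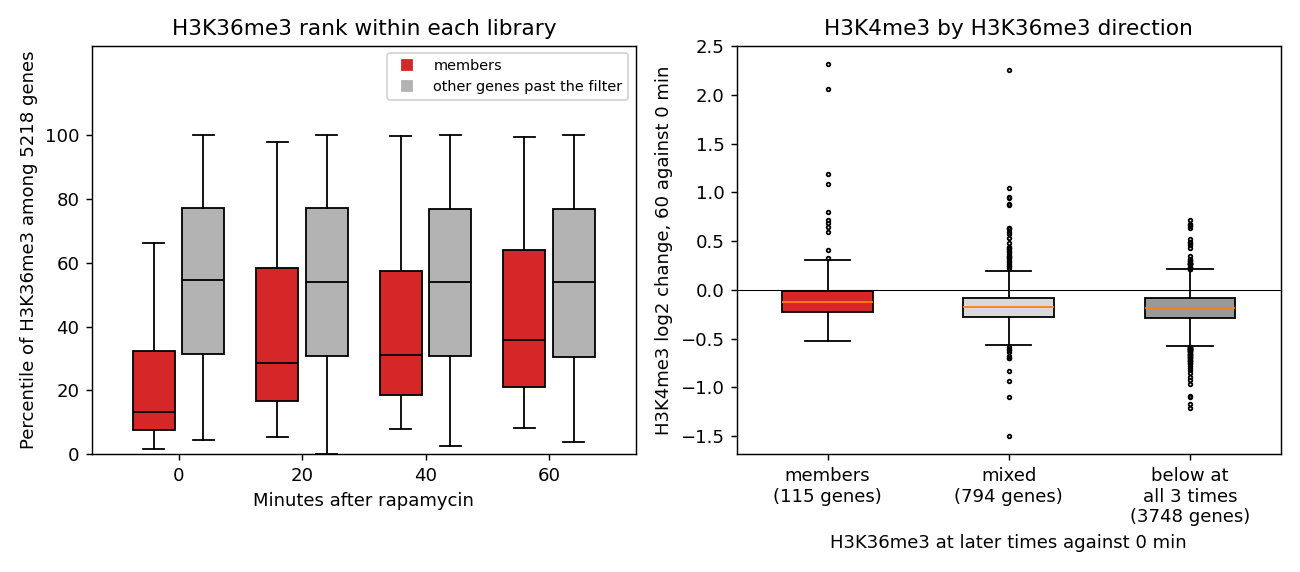
Left, percentile of H3K36me3 signal within each library for the 143 members and the other 4718 genes past the filter. Right, H3K4me3 log2 change at 60 min for members, genes with mixed directions of H3K36me3 and genes below 0 min at all 3 times. Boxes show quartiles and median, whiskers reach 1.5 times the box (outlying points are drawn on the right only), and the median percentile of members goes from 13.2 to 35.9.

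H3K4me3 gives a readout that the rule did not use. Of the 143 members, 115 had a mean H3K4me3 signal of at least 25% of the median gene's, that is 1.17 or more. The other 28 members were below it (19.6%), as were 4.2% of the 4861 genes. Among genes with 0 min H3K36me3 in the lowest 25%, a comparison chosen after seeing the data, 18 of 96 members (18.8%) and 8.93% of 851 other genes were below it.

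In the 115 members, H3K4me3 was above 0 min at 48 genes at 20 min (41.7%, beside 32.8% of the 4657 genes past both filters), at 68 at 40 min (59.1%, beside 49.1%) and at 27 at 60 min (23.5%, beside 11.1%). It was above 0 min at all 3 later times at 21 members (18.3%, beside 6.94%) and below at all 3 at 38 (33.0%, beside 41%). It was at least 1.25 times its 0 min level at 60 min in 11 members (9.57%, beside 0.945%). In the 794 genes past both filters with mixed directions of H3K36me3, 22 (2.77%) reached 1.25 times. H3K4me3 was above 0 min at all 3 later times in 65 of those 794 (8.19%). YMR013W-A and YLR286W-A, both among the 21 and the 11, passed the H3K4me3 filter only through their later values. Among genes at or above its threshold at 0 min already, 19 of 113 members (16.8%, beside 6.86%) were above 0 min at all later times, and 9 (7.96%, beside 0.860%) reached 1.25 times. Under equal totals H3K4me3 was above 0 min at all later times in 43 of the 115 (37.4%, beside 24.0%), and with the lowest 5% of genes held it was so in 58 (50.4%, beside 40.8%). Under the same scalings 15 (13.0%, beside 2.53%) and 25 (21.7%, beside 8.65%) reached 1.25 times at 60 min. The median H3K4me3 change of the members was -0.034, 0.033 and -0.13 at the 3 later times, beside -0.060, -0.0028 and -0.18 over all genes. Most members therefore had a little less H3K4me3 at 60 min than at 0 min, as most genes did, and a minority had clearly more; under both other scalings the members' median turned above 0, to 0.046 and 0.17.

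The comparison was also made by level of mean H3K36me3, which includes the values that chose the members. Whether it differs between levels was not tested. Among genes whose mean H3K36me3 was at or above the median, H3K4me3 was above 0 min at all 3 later times in 10 of 29 members (34.5%) and in 7.81% of 2509 other genes. Below the median it was so in 11 of 86 members (12.8%) and 5.21% of 2033 other genes. Across the 115 members the rank correlation of the H3K36me3 and H3K4me3 changes at 60 min was 0.35, and across all 4657 genes it was 0.18. In the 794 genes with mixed directions of H3K36me3 it was 0.31, close to that of the members. In the 3748 genes below 0 min at all 3 times it was 0.17. Genes are not independent replicates and all share the same 4 libraries. With the 115 members in 4 groups of 28 or 29 by H3K36me3 change, from the smallest to the largest, 1, 7, 2 and 11 genes had H3K4me3 above 0 min at all later times, so the count did not go up step by step.

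**Figure D4:**
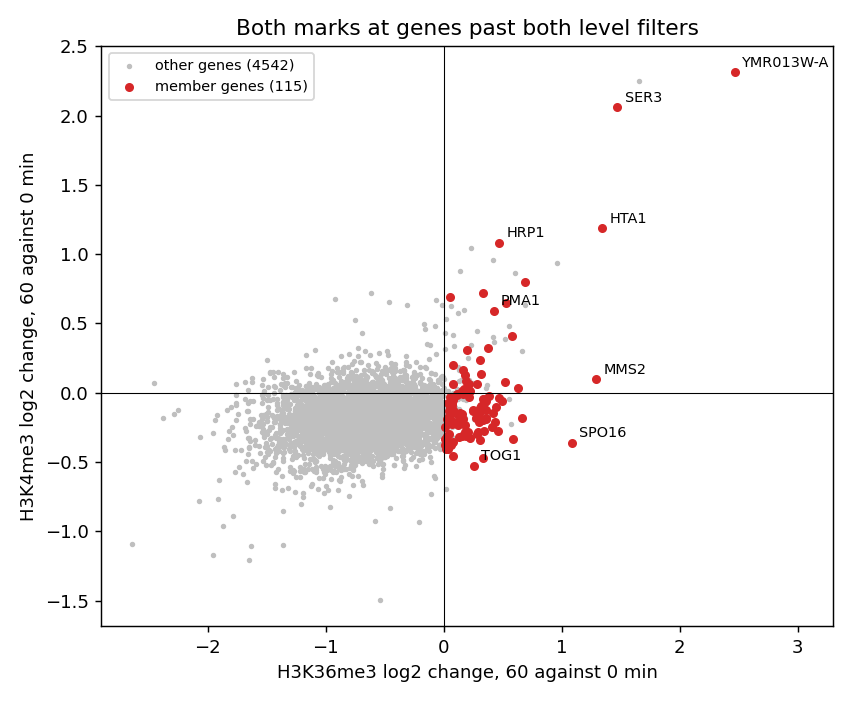
Log2 change at 60 min of H3K36me3 (horizontal) and H3K4me3 (vertical), 1 point per gene, for 115 members (red) and 4542 other genes past both level filters (grey). Members lie right of 0 by the rule. YMR013W-A, *SER3*, *HTA1* and *HRP1* are above 1 in H3K4me3, and *SPO16* and *TOG1* are below 0.

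The 21 members with both marks above 0 min at every later time were YMR013W-A, *SER3*, *HTA1*, *MMS2*, YLR286W-A, *BNA7*, *HHF1*, YDR524C-A, *HRP1*, *PMA1*, *PRX1*, *MHF1*, *EFM3*, *AMN1*, *ATX2*, *ODC2*, *COS10*, *POC4*, *DSE2*, *UTR2* and *CTS1*. *HRP1* had H3K4me3 of 3.47, 5.27, 7.20 and 7.40, and *PMA1* 5.07, 6.20, 8.71 and 7.66. *HRP1* went from percentile 21.9 of all genes in H3K4me3 to 98.8. YMR013W-A had 0.354, 0.733, 1.81 and 1.95, a log2 change of 2.31, and YLR286W-A had 0.815, 1.16, 1.38 and 1.46. In *HRP1* and *PMA1* the H3K4me3 and H3K36me3 values of the 3 later libraries all lay above those of 0 min, and the 40 min libraries were above the 20 min ones in both marks.

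*MHF1*, whose product has a histone fold and acts at stalled replication forks, had H3K4me3 of 1.45, 1.92, 2.56 and 2.42 with H3K36me3 of 0.743, 0.901, 1.18 and 0.939. *PRX1* had H3K4me3 of 2.23, 2.52, 2.93 and 2.81. At *BNA7*, *COS10*, *MMS2*, *EFM3*, *ATX2* and *UTR2* H3K4me3 was above 0 min by no more than 0.1 on the log2 scale at 60 min. Another 3 members were above 0 min in H3K4me3 at all times from levels too low to pass its filter, namely YLR342W-A, YMR304C-A and *ARG1*, the gene of argininosuccinate synthetase, which makes 24 of 143 (16.8%, beside 6.95% of the 4861 genes).

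H3K4me3 was below 0 min at all 3 later times at 38 members, with a median of -0.26 at 60 min. The lowest among the 115 was *TOG1*, known as an activator of oleate genes, with H3K4me3 of 2.42, 2.61, 2.14 and 1.66, above 0 min at 20 min and below it later. After it came YDL199C at -0.47, *MGT1*, a DNA repair methyltransferase gene, at -0.46, *RMD5* of a ubiquitin ligase at -0.41 and *NUR1* of the nuclear rim at -0.40. *MGT1* and YDL199C are adjacent on chromosome IV. *MGT1* had H3K4me3 of 2.34, 2.02, 1.94 and 1.69 while its H3K36me3 was 0.221, 0.281, 0.327 and 0.234. Here the marks lay on opposite sides of 0 min.

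*SPO16* had H3K4me3 of 1.38, 1.34, 1.35 and 1.06, below 0 min at every time. *CLN1*, which encodes a G1 cyclin, had 4.97, 4.65, 4.75 and 4.34 in H3K4me3 and 1.14, 1.48, 1.71 and 1.44 in H3K36me3. *COX4*, a subunit gene of cytochrome c oxidase, had 5.27, 4.57, 5.12 and 4.53 in H3K4me3 and 1.22, 1.46, 1.90 and 1.51 in H3K36me3.

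The 28 members under the H3K4me3 filter had a median H3K4me3 signal of 0.394 at 0 min, where the median gene past the H3K36me3 filter was at 5.03. Their H3K36me3 at 0 min had a median of 0.376. The following 6 are single genes picked after their values were seen. *IME2*, the meiotic protein kinase gene, had H3K36me3 of 0.401, 0.511, 0.654 and 0.475 and H3K4me3 of 0.285, 0.301, 0.255 and 0.233. *RIM4*, the gene of a meiotic RNA-binding protein, had H3K36me3 of 0.396, 0.438, 0.485 and 0.552, and *DON1*, of the prospore membrane, had 0.324, 0.461, 0.432 and 0.441.

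*OPT2*, the gene of an oligopeptide transporter, had H3K36me3 of 1.04, 1.32, 1.21 and 1.14 and H3K4me3 of 0.459, 0.391, 0.323 and 0.270. *TIR4*, a cell wall mannoprotein gene, had H3K36me3 of 0.840, 1.05, 0.965 and 0.921 with H3K4me3 at 0.222 and 0.178 at 0 and 60 min. YIR020C, which lies wholly within the noncoding gene *ICR1*, had H3K36me3 of 0.895, 1.14, 1.39 and 0.948, and its H3K4me3 was 0.108, 0.111, 0.0843 and 0.104. In *OPT2*, *TIR4* and YIR020C the H3K36me3 signal exceeded the H3K4me3 signal on the deposited scale in all 4 pairs of libraries, although the scales of the marks are not known to be comparable.

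By the known pathway of the mark, none of the 20 measured genes of H3K36 methylation, its readers, its demethylases, the histone chaperones that go with it and the kinases of the polymerase tail was a member, where the rule took 2.94% of all genes. None of the 20 was above 0 min at 60 min, as only 4.79% of all genes were, and their median was -0.57, beside -0.65 over all genes. The list thus stood near the background. Like those that follow, it was written with earlier results of these data known, so shares of members in the lists are descriptions only. *SET2* itself had 2.79, 1.35, 1.61 and 1.23. *RPH1*, a demethylase gene, had 0.829, 1.15, 0.888 and 0.636, above 0 min at 20 and 40 min and below it at 60 min. *SPT6*, of a histone chaperone that travels with the polymerase, had 1.34, 1.48, 1.85 and 1.21.

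Of 10 histone genes 2 were members (20%, beside 2.94% of all genes), *HTA1* and *HHF1*, which encodes histone H4. Earlier results of these data were known when the list was written. *HHF1* had H3K36me3 of 0.401, 0.441, 0.697 and 0.602 and H3K4me3 of 2.99, 3.24, 4.36 and 3.99. *HTA1* had H3K4me3 of 1.60, 2.15, 3.31 and 3.70. Their divergent partners were no members: *HTB1* was at -0.16 in H3K36me3 and 0.49 in H3K4me3 at 60 min, and *HHT1* at 0.058 and 0.63. The list's median H3K36me3 change was -0.10, and that of H3K4me3 was 0.35. Histone genes have near-identical copies, and how reads were divided between them is not stated, so these values are uncertain.

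Of 20 genes of daughter cell separation and early G1, 4 were members (20%, beside 2.94%), namely *CTS1*, *DSE1*, *DSE2* and *AMN1*. Since that list was written with earlier results of these data known, its shares are a description only. Over the 20 genes the median change was -0.21 in H3K36me3 and 0.062 in H3K4me3, beside -0.65 and -0.18 over all genes, and 6 were above 0 min in H3K36me3 at 60 min (4.79% of all genes were) and 11 in H3K4me3 (11.1% were). *CTS1*, the chitinase gene that daughters need to part from mothers, had H3K36me3 of 1.57, 1.62, 1.77 and 1.63 and H3K4me3 of 2.45, 3.29, 3.69 and 3.97. *DSE1* had H3K36me3 of 0.761, 1.11, 0.992 and 0.948 and *DSE2* 1.33, 1.51, 1.79 and 1.40. *AMN1*, an antagonist of mitotic exit, had 1.58, 1.59, 2.15 and 1.81. In *CTS1* the H3K36me3 difference was 0.053 at 60 min and that of H3K4me3 0.69.

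Of 27 cell wall genes past the filter, *CTS1* and *UTR2*, which encodes a chitin transglycosylase, were members (7.41%, beside 2.94%). *CCW12*, a major mannoprotein gene, was at 0.444, 0.424, 1.18 and 1.42, and missed the set by its 20 min value. *PIR1*, *PST1*, *SUN4* and *EXG1* of the list were likewise above 0 min at 60 min and below it at 20 min. Of 20 genes known for control by noncoding transcription or early termination, *SER3* and *HRP1* were members (10%, beside 2.94%). Both lists were written with earlier results of these data known. *NRD1*, of the complex that ends short noncoding transcripts, was at 2.70, 2.15, 3.43 and 2.73. Of those 20 genes, 4 were above 0 min in H3K36me3 at 60 min (4.79% of all genes were). Their median change of -0.65 was that of all genes, and the lowest was *NAB2*, with 7.08 at 0 min and 1.45 at 60 min.

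Among 135 ribosomal protein genes 3 were members (*RPS22B*, *RPL11B* and *RPS10A*), 2.22% where the rule took 2.94% of all genes. Of 25 plasma membrane transporter genes 2 were members (8%), *PMA1* and the phosphate transporter gene *PHO89*, and of 19 glycolysis and fermentation genes none was. *TDH3*, the one gene of the latter list above 0 min at 60 min, had 1.92, 1.73, 2.82 and 2.34. Medians of H3K36me3 at 60 min were -0.80 for ribosomal protein genes, -0.51 for glycolysis, -0.56 for transporters, -0.43 for cell wall genes and -0.65 for the noncoding and termination list.

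A few more members are given as single genes, picked after their values were seen. *CTF8*, which acts in sister chromatid cohesion, had H3K36me3 of 0.350, 0.513, 0.475 and 0.480, and *RAD9*, the DNA damage checkpoint gene, had 0.593, 0.772, 0.783 and 0.598. *YFH1*, the gene of mitochondrial frataxin, had 0.367, 0.456, 0.442 and 0.456, and *ODC2*, of a mitochondrial carrier, had 0.849, 0.892, 1.03 and 0.966. At *CTF8* and *YFH1* the later libraries lay closer to each other than to 0 min.

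By position, 135 members were matched to the gene table and 8 were not (86 of 4861 genes, or 1.77%, were not). The matched members had a median length of 954 bases with quartiles of 606 and 1644, beside 1263 bases (804 and 1923) for all matched genes past the filter. Short genes hold fewer reads at a given coverage, and the part of length in the choice was not tested. Of the 135, 6 overlapped another annotated gene (4.44%, beside 2.03%), namely *SER3*, *GAL4*, *RPS22B*, YIR020C, *EMA35* and *SMD1*, the last by 6 bases. In *SER3*, *GAL4*, *RPS22B* and YIR020C the other gene is a noncoding RNA gene. The share of all genes that overlap a noncoding RNA gene was not computed, so no excess can be read from this. Within 30 kb of a chromosome end lay 6 members (4.44%, beside 3.35%), with *COS10* nearest, at 2.50 kb.

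Neighbours that were not members themselves had a median H3K36me3 change close to that of other genes' neighbours. The nearest protein-coding genes on each side, where past the filter and not members themselves, were 202 genes with a median change of -0.64 at 60 min, and 6 of them (2.97%) were above 0 min. With equal totals that median was 0.021. Over the neighbours of all genes past the filter, members again left out, the median was -0.66 and 1.71% were above 0 min. Leaving members out removes neighbours that were above 0 min by the rule, so these shares are lower than with members kept. Of the 217 links from members to neighbours past the filter, 12 led to another member (5.53%). Of all links from genes past the filter 2.72% led to a member, so a larger part was left out on the members' side.

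Links between members made 6 adjacent pairs, *AMN1* with *ICS2*, *ATG5* with *PPT2*, *CHL4* with *RMD5*, *JJJ3* with YJR096W, *MGT1* with YDL199C and *SMD1* with *UPF3*. *CHL4* and *RMD5* are convergent with 67 bases between them, and had H3K36me3 of 0.305, 0.362, 0.412 and 0.314, and of 0.245, 0.352, 0.366 and 0.252. *AMN1* and *ICS2* are divergent with 2238 bases between them. *AMN1* had higher H3K4me3 at all later times, and *ICS2* lower (4.48, 3.54, 4.46 and 4.28), so the pair agreed in H3K36me3 by the rule and differed in H3K4me3.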

How the data were processed

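The submitters' processing notes name the builds sacCer3 and ASM294v2 and the tools Bowtie2, SAMtools and bedtools; versions, roles and the measured stretch of each gene: not given in the sources used here. Per the labels' protocols, *Schizosaccharomyces pombe* cells (25%) served as a spike-in. The authors deposited 1 linear signal value per gene, mark and time, and neither labels nor headers say whether it was divided by input, length or spike-in. The labels list 8 immunoprecipitated and 8 input libraries, and columns were read as the immunoprecipitated libraries of the mark and time they name. Of 5222 lines, 3 were blank and 1 had no values.

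From the signal, levels, log2 changes (pseudocounts of 0.0108 for H3K36me3 and 0.0491 for H3K4me3), ranks, medians and counts were computed with pandas 2.3.3 and Python 3.11.15. The R64 gene table held 5115 of the 5218 systematic names and gave symbols and positions; strands were read from the W or C of the name. The set, gene lists and named genes were chosen with earlier results of these data known. Named genes were the members with the largest changes in each level class, the highest 0 min levels, the highest and lowest H3K4me3 changes, those at the edges of the rule and members of the lists. The selection step was tested on simulated levels. Alternatives covered scaling, filter, margin, pseudocount, overlap and each later time left out. Promoter sequences were not analysed here.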

Additional observations from a re-analysis of the deposited data

How the results depend on the processing

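The set kept all 143 genes and grew to 200 with no level filter, to 209 without 20 min, to 147 without 40 min and to 360 without 60 min, so the 60 min library limits its size most of these. It had 86 genes with the filter at 50% of the median gene, 74 with a 10% margin over 0 min, 129 without overlapping or unmatched genes, 1792 under equal column totals and 1004 with the lowest 5% of genes held constant. The same scalings moved the members' median H3K4me3 change at 60 min from -0.13 to 0.046 and 0.17. That of all genes went from -0.18 to -0.010 and 0.11. A scaling adds about the same amount to every gene, so the difference of about 0.056 between members and all genes could not change with it. The members' median was between -0.14 and -0.031 under the other alternatives. Members with H3K4me3 above 0 min at all later times numbered 43 and 58 of 115 under those scalings (24.0% and 40.8% of all genes). They numbered 17 of 108 without overlapping or unmatched genes (6.73% of all genes) and 11 of 56 with the margin (6.94%). Where 0 min H3K4me3 was itself past the filter, a setting added after seeing the data, they numbered 19 of 113 (6.86%). The neighbours' median H3K36me3 change turned to 0.021 under equal totals and moved to -0.039 with the lowest 5% held. Overlap of at least 10% of the gene was found at 2.22% of members and 1.19% of all genes. For the genes named by the rule, all 50 changes moved by over 0.1 under each scaling. That follows from the amounts the scalings add and is no trait of the genes. With a pseudocount of 10%, 16 of the 50 moved. No paired analysis was possible because each mark and time has 1 library and the result comes from no test. Depth is unknown, so differences at low signal, as at *SPO16* or *MMS2*, cannot be bounded.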
